A study of Homo sapiens with 5 samples.

Results

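The genes described here encode the enzymes of the citric acid cycle, the proteins that bring pyruvate into it, and enzymes that link it to glutamate. They were chosen by name as a list of 35 genes, and for each the array probe set with the highest mean over the 5 arrays was taken. Of the 35 genes, 32 were measured, out of 18417 genes in all. FH, GLUD1 and PDP2 matched no probe set with 1 gene symbol in the annotation used and were not analysed here. The RNA came from Nalm6, a human line of leukaemic B-cell precursors that is long established in culture. Control clones carried a nonsense short hairpin RNA (shRNA; 2 clones), and the others carried a shRNA against MondoA (3 clones), with 1 Affymetrix array for each clone. All clones were kept in the same medium, RPMI with 20% heat-inactivated serum, 1% glutamine, gentamycin and 200 mg/dl glucose. With 1 array for each clone, differences between clones and between arrays cannot be told apart, and p-values measure the spread between these arrays.

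In the mitochondrion, pyruvate enters through a carrier and is converted to acetyl-CoA by the pyruvate dehydrogenase complex, which kinases (PDK) switch off and phosphatases (PDP) switch on. Citrate synthase joins acetyl-CoA to oxaloacetate, and the cycle then oxidises the carbon while reducing NAD. Isocitrate is oxidised by the NAD-linked enzyme IDH3, made of 3 kinds of subunit, and also by the NADP-linked enzymes IDH1 in the cytosol and IDH2 in the mitochondrion, which make NADPH. MondoA is the product of MLXIP. Together with its partner MLX it acts as a transcription factor that responds to glucose metabolites and binds E-box DNA of the form CACGTG.

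Values are RMA (robust multi-array average) expression on the log2 scale, in which a difference of 1 is a 2-fold change. Errors are SD (n = 2 for control, n = 3 for MondoA shRNA) unless named as SE, and a difference is MondoA shRNA minus control. Adjusted p-values come from limma over all genes, with Benjamini-Hochberg adjustment and a threshold of 0.05. MLXIP itself read 6.42 and 6.42 in control arrays against 6.42, 6.47 and 6.29 in the MondoA shRNA arrays, a difference of -0.03 (limma adjusted p = 0.959), so directions refer to the clone labels. Of 12 measured markers of B precursors all lay above the median gene level of 4.15, with levels from 4.85 (RAG1) to 10.4 (MME). Several of these markers differed between the groups at an unadjusted p under 0.05 by limma. Of the 12, 3 were higher (CD22 by 1.27, CD79A by 0.91, CD79B by 0.25) and 1 was lower (DNTT, -1.19), against 1.55% and 2.18% of all genes. With 0 past the adjusted threshold by limma, the part of these markers in the results was not tested. A level above that median was also found for 1 of 8 T and natural killer markers (NKG7, 6.46), 1 of 8 myeloid markers (ELANE, 5.51), 0 of 5 erythroid and platelet markers and 3 of 6 fibroblast and epithelial markers. RMA gave 76.6% of genes an exactly shared value in at least 1 pair of arrays, and 12 of the 32 genes had such a tie.

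All MondoA shRNA arrays read lower than either control array in 4 of the 32 genes (IDH1, IDH2, ME3 and PDP1). The share was 5.18% over all genes and 9.26% over genes with a mean level above 5. Of the 4 genes, IDH1, IDH2 and ME3 encode NADP-linked enzymes, a grouping made after their values were seen. The groups overlapped in ME1, the other NADP-linked gene of the 32 (difference -0.01). Shown for IDH1, IDH2 and ME3 are the 250 bases before the most upstream start in the list of starts used here (GRCh38.p14). They are given because MondoA binds the E-box CACGTG, printed in capitals where it was found on either strand. The windows lie on the minus strand at chr2:208255072-208255321 for IDH1, chr15:90100622-90100871 for IDH2 and chr11:86672617-86672866 for ME3, and are written 5′ to 3′ toward the gene.
IDH1: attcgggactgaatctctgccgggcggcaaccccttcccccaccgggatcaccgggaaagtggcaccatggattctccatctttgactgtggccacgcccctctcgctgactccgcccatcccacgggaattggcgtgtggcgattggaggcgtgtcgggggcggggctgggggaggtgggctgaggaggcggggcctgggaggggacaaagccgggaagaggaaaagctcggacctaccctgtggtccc
IDH2: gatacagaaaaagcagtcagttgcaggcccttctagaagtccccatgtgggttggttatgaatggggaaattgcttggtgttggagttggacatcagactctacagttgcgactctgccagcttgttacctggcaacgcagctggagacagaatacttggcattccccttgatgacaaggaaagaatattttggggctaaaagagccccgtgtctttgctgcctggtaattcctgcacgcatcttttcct
ME3: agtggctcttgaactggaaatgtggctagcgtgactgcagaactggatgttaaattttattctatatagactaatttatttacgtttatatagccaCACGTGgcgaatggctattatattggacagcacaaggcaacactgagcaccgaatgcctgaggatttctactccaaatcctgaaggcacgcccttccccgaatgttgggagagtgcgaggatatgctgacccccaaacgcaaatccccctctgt

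The E-box occurred once in the ME3 window, its first base 154 bases before the start, and in no place in the IDH1 or IDH2 windows. Windows were listed for 30 of the 32 genes, and 2 of these (6.67%; ME3 and PDHB) held it, against 6.46% of 27305 genes. Whether each window lies before the main start of its gene was not checked. Other starts and more distant DNA were not searched, and binding was not measured.

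Across the 32 genes no difference passed the adjusted threshold, as for all genes (0 of 18417, or 0%). At an unadjusted p under 0.05 by limma, 1 of the 32 was higher (SUCLG2; 1.55% of all genes) and 2 were lower (IDH2 and ME3; 2.18% of all genes). Every MondoA shRNA array lay above both control arrays in 1 gene (SUCLG2; 4.85% of all genes) and below both in 4 (IDH1, IDH2, ME3 and PDP1; 5.18% of all genes). The median difference of the 32 genes was 0.04, with 21 above 0 and 11 below, against a median of 0.00 over all genes. It was -0.02 without MondoA shRNA array 2.

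Most of these genes were bright, with 27 of 32 at a mean level above 5. Among those 27, 0 were higher and 1 was lower (IDH2) at an unadjusted p under 0.05 by limma, where 2.47% and 3.92% of the 7450 genes above that level were. All MondoA shRNA arrays lay above control in 0 of these 27 genes (7.74% of the 7450) and below control in 3 (9.26% of the 7450). Among the 32 the number that passed the adjusted threshold became 3 without control array 1 (IDH2, SUCLG2 and PDK4) and 2 without control array 2 (IDH2 and SUCLG2). In those fits 1 control array is left and is assumed to vary like the MondoA shRNA arrays, whose SUCLG2 and PDK4 values were exactly equal to each other.

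**Figure D1:**
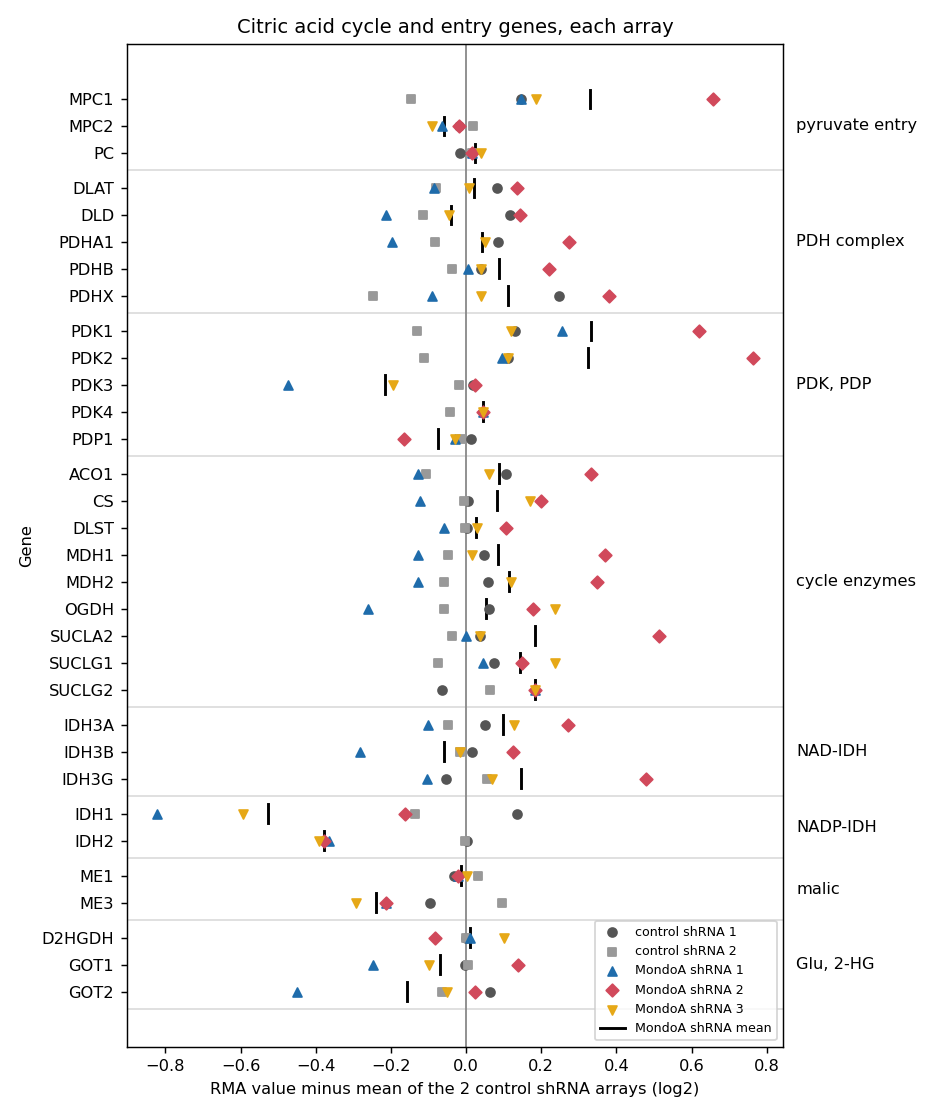
Each row is 1 of 32 genes and each point 1 array, plotted as its RMA value minus the mean of the 2 control arrays (log2), with a black bar at the MondoA shRNA mean. The 3 MondoA shRNA points of IDH2 lie together at -0.38, those of IDH1 are spread to the left of control, and MondoA shRNA array 2 (diamonds) lies furthest to the right in most rows.

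Of the isocitrate dehydrogenase genes, IDH1 and IDH2 read lower in every MondoA shRNA array than in control, while the IDH3 subunits overlapped between the groups. IDH2 (probe set 7991374, chromosome 15) read 9.91 and 9.91 in control arrays against 9.54, 9.53 and 9.52 in the MondoA shRNA arrays. The groups were apart by a gap of 0.36, and the 3 MondoA shRNA clones differed among themselves by at most 0.03. The difference of -0.38 ± 0.01 (SE) is a level 23.1% lower, with a 95% interval from -0.41 to -0.35, the lowest unadjusted p of any gene (1.12e-05) and a limma adjusted p of 0.110. Without control array 1 the limma adjusted p was 0.0217 and without control array 2 it was 0.0293, while the difference stayed between -0.38 and -0.37 with any 1 array left out. RNA came from whole cultures, so less RNA in every cell and fewer cells with the RNA cannot be told apart.

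The small p of IDH2 goes with an uncommonly small spread between arrays. Its residual SD was 0.0106, a size reached or undercut by 4.20% of the 7450 genes with a mean level above 5, whose median was 0.127. The median over the 27 genes of the cycle and its entry was 0.200. IDH1, the only one of the 32 with a larger difference, had a residual SD of 0.295. The limma p of IDH2 depended on the processing. Unadjusted it was 0.00194 after the arrays were quantile normalised again (adjusted 0.335) and 0.0129 without genes with tied values (adjusted 0.215). With arrays weighted it was 5.85e-06 (adjusted 0.0539).

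IDH1 (chromosome 2), the cytosolic NADP-linked enzyme, read 8.04 and 7.77 in control arrays against 7.09, 7.75 and 7.32 in the MondoA shRNA arrays. MondoA shRNA array 2 was within 0.03 of control array 2, and the other 2 MondoA shRNA arrays were clearly lower. The difference of -0.53 ± 0.25 (SE) was the largest of the 32 in size, with a 95% interval from -1.25 to 0.19 and a limma adjusted p of 0.833. It was -0.38 without MondoA shRNA array 1 and -0.71 without MondoA shRNA array 2.

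IDH3A, the catalytic subunit, read 8.49 and 8.39 in control against 8.34, 8.71 and 8.57 in the MondoA shRNA arrays, a difference of 0.10. IDH3B read 8.57 and 8.54 against 8.27, 8.67 and 8.54, a difference of -0.06. IDH3G read 7.55 and 7.66 against 7.50, 8.09 and 7.68, a difference of 0.15. In all 3 subunits MondoA shRNA array 1 was the lowest of the 5 arrays and MondoA shRNA array 2 the highest, and limma adjusted p-values ran from 0.841 to 0.952.

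Whether the NADP-linked genes changed differently from IDH3 was tested within arrays. IDH2 minus the mean of the IDH3 subunits was 1.71 and 1.71 in control arrays against 1.51, 1.04 and 1.26 in the MondoA shRNA arrays, so the groups did not overlap. The change was -0.44, with an exact two-sided permutation p of 0.2 and an adjusted p of 0.3 over 3 such comparisons, where 10 splits of 5 arrays allow no p below 0.1. IDH1 minus the mean of the IDH3 subunits was -0.16 and -0.42 in control against -0.95, -0.75 and -0.94 in the MondoA shRNA arrays, a change of -0.59 (exact permutation p = 0.1, adjusted 0.3). These groups did not overlap either. Since the smallest p is 0.1, the test could not reach 0.05 whatever the values, and the comparison of IDH1 with IDH3 was added after the values were seen. IDH2 minus IDH1 changed by 0.15, with values of 1.87 and 2.13 against 2.46, 1.79 and 2.20 (exact permutation p = 0.6, adjusted 0.6), and these groups overlapped. The size of these values within an array depends on the probes and is no ratio of RNA levels.

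**Figure D2:**
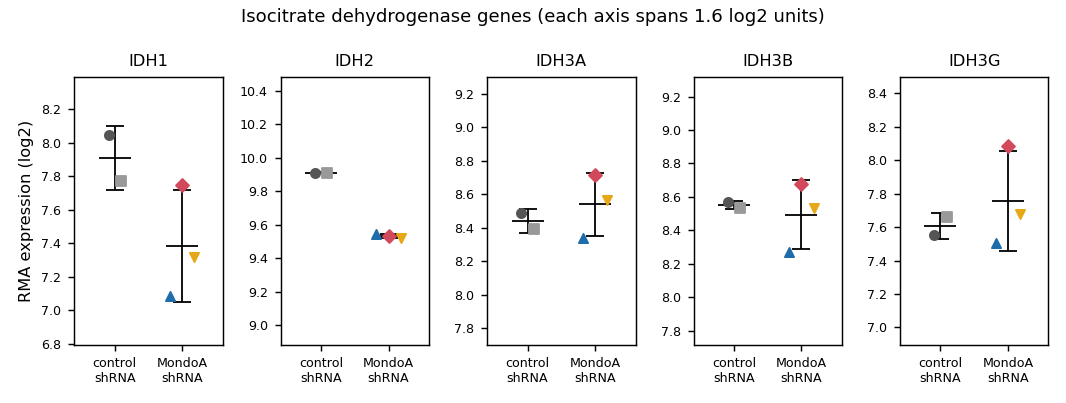
RMA expression (log2) of the 5 isocitrate dehydrogenase genes in each array, with circles and squares for control arrays 1 and 2, triangles, diamonds and inverted triangles for MondoA shRNA arrays 1, 2 and 3, and bars for mean ± SD. Each axis spans 1.6 log2 units. IDH2 reads 9.91 in control against 9.52 to 9.54 in the MondoA shRNA arrays, while the groups of IDH3A, IDH3B and IDH3G overlap.

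The malic enzymes turn malate into pyruvate. ME3, the mitochondrial NADP-linked form, read 4.75 and 4.94 in control arrays against 4.63, 4.63 and 4.55 in the MondoA shRNA arrays. Its groups were apart by 0.12, and the difference of -0.24 ± 0.07 (SE) had an unadjusted p of 0.0355 and an adjusted p of 0.833 by limma. The difference was -0.15 without control array 2, and the unadjusted limma p was above 0.05 (0.0773 to 0.104) in 4 of the 5 fits with 1 array left out. Its levels were close to the median gene level of 4.15. ME1, the cytosolic NADP-linked form, lay far below that level in all arrays (2.43 to 2.49), and its difference was -0.01.

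The pyruvate dehydrogenase complex overlapped between the groups in every subunit. PDHA1, the catalytic E1 alpha subunit, read 9.26 and 9.10 in control arrays against 8.98, 9.45 and 9.23 in the MondoA shRNA arrays, a difference of 0.04. PDHB, the E1 beta subunit, read 6.95 and 6.87 against 6.92, 7.13 and 6.95, a difference of 0.09. DLAT, the acetyl-transferring E2 core, read 8.42 and 8.25 against 8.25, 8.47 and 8.34, a difference of 0.02. In these 3 genes MondoA shRNA array 2 was the highest of all arrays.

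PDHX, which binds the E3 enzyme to the core, read 6.54 and 6.04 in control arrays against 6.20, 6.67 and 6.33 in the MondoA shRNA arrays, a difference of 0.11. Its control arrays were the furthest apart of the 5 subunits (SD 0.35). DLD, the E3 enzyme shared with the oxoglutarate and branched-chain complexes, read 9.17 and 8.94 against 8.84, 9.20 and 9.01, a difference of -0.04. The 5 limma adjusted p-values ran from 0.833 to 1.00, and the 95% intervals of the differences reached from -0.58 (PDHX) to 0.80 (PDHX).

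The kinases that inactivate the complex had differences of both signs, and none passed the adjusted threshold. PDK1 read 7.76 and 7.49 in control arrays against 7.88, 8.25 and 7.75 in the MondoA shRNA arrays, a difference of 0.33 ± 0.20 (SE) with a 95% interval from -0.25 to 0.91. MondoA shRNA array 3 lay just below control array 1, so the groups overlapped, and the difference was 0.19 without MondoA shRNA array 2 and 0.20 without control array 2. PDK2 read 5.29 and 5.06 against 5.27, 5.94 and 5.29, a difference of 0.32, with MondoA shRNA array 2 alone above the control range. Without that array it was 0.10, and without control array 2 it was 0.21. PDK3 read 6.34 and 6.30 against 5.84, 6.34 and 6.12, a difference of -0.22. It was -0.09 without MondoA shRNA array 1 and -0.34 without MondoA shRNA array 2. PDK4 lay far below the median gene level, at 2.62 and 2.53 in control arrays against 2.62 in each MondoA shRNA array. The 4 kinases had the same limma adjusted p of 0.833.

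The phosphatase gene PDP1, whose product reactivates the complex, read 5.39 and 5.36 in control arrays against 5.35, 5.21 and 5.35 in the MondoA shRNA arrays. The groups did not overlap, but the gap was only 0.02, and the difference was -0.07 (limma adjusted p = 0.833). The mean of the 4 kinases minus the mean of the 5 subunits was -2.57 and -2.49 in control arrays against -2.43, -2.40 and -2.53 in the MondoA shRNA arrays. Its change was 0.08, the groups overlapped, and without the dim PDK4 the change was 0.10. With 1 array left out it ran from 0.04 (without control array 1) to 0.11 (without control array 2 or MondoA shRNA array 3).

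**Figure D3:**
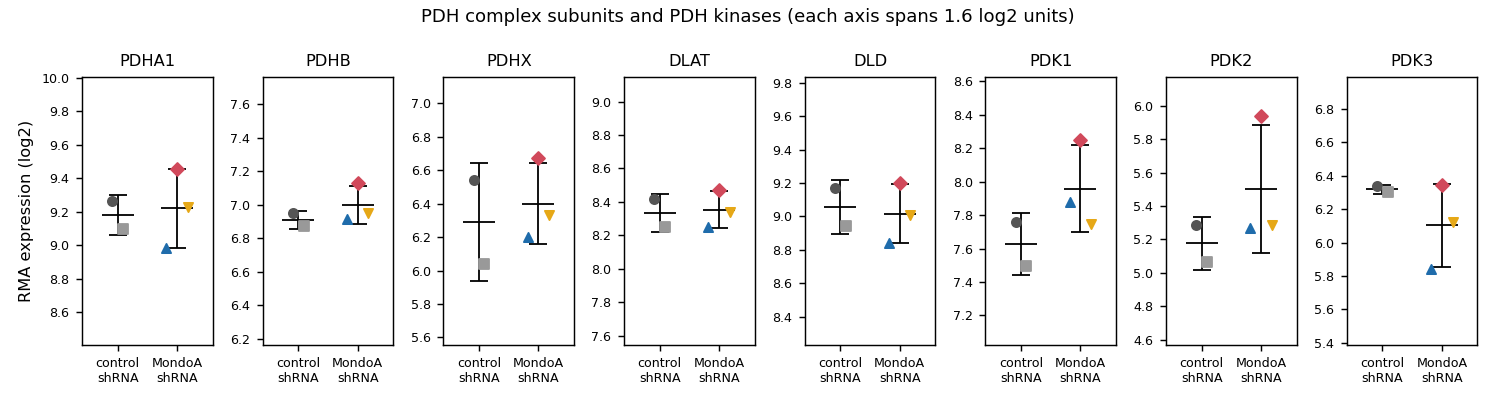
RMA expression (log2) of the 5 pyruvate dehydrogenase complex genes and of PDK1, PDK2 and PDK3 in each array, with circles and squares for control arrays 1 and 2, triangles, diamonds and inverted triangles for MondoA shRNA arrays 1, 2 and 3, and bars for mean ± SD. Each axis spans 1.6 log2 units. The groups overlap in all 8 genes, and MondoA shRNA array 2 (diamonds) is the highest array in each.

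Of the pyruvate carrier, MPC1 read 7.11 and 6.82 in control arrays against 7.11, 7.62 and 7.15 in the MondoA shRNA arrays, a difference of 0.33 ± 0.22 (SE; limma adjusted p = 0.833). MondoA shRNA array 1 shared its value with control array 1, and MondoA shRNA array 2 stood highest. The difference was 0.17 without that array and 0.18 without control array 2. Its partner MPC2 stayed between 6.55 and 6.66 in all arrays, with a difference of -0.06. PC, the carboxylase that makes oxaloacetate from pyruvate, read 5.42 to 5.48, with a difference of 0.02.

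The other enzymes of the cycle had differences from 0.03 to 0.18, all 9 above 0 and 0 past the adjusted threshold. These are citrate synthase (CS, 0.08), the cytosolic aconitase ACO1 (0.09), the oxoglutarate dehydrogenase subunits OGDH (0.05) and DLST (0.03), the succinyl-CoA ligase subunits SUCLG1 (0.14), SUCLA2 (0.18) and SUCLG2 (0.18), and the malate dehydrogenases MDH1 (0.09, cytosolic) and MDH2 (0.11, mitochondrial). MDH2 was the brightest of the 32 at 10.3. The shared sign of the 9 depends on MondoA shRNA array 2, the highest array in ACO1, CS, DLST, MDH1, MDH2 and SUCLA2. Without it ACO1 averaged below control, with 7.25 and 7.44 against control values of 7.48 and 7.27. So did MDH1, with 7.59 and 7.73 against 7.76 and 7.66. Slightly below control without that array were also DLST (7.49 and 7.58 against 7.55 and 7.55), MDH2 (10.10 and 10.34 against 10.28 and 10.17) and OGDH (7.45 and 7.95 against 7.77 and 7.66). CS, SUCLA2 and SUCLG1 stayed above control on average, and SUCLG2 kept its difference of 0.18. Over all genes 10008 of 18417 differences lay above 0, and the shared sign was not tested. In 8 of these 9 genes the groups overlapped.

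The exception was SUCLG2, the subunit of the GTP-forming ligase, which read 2.15 and 2.28 in control arrays against 2.40 in each MondoA shRNA array. Both means lie below the median gene level, and detection above background was not assessed, so whether its difference of 0.18 (unadjusted p = 0.0178, adjusted p = 0.833 by limma) reflects RNA was not tested. SUCLA2, the subunit of the ATP-forming ligase, read 7.53 and 7.45 against 7.49, 8.003 and 7.53, with MondoA shRNA array 2 alone above the rest.

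The aminotransferases that exchange glutamate and aspartate had small negative differences, -0.07 for the cytosolic GOT1 and -0.16 for the mitochondrial GOT2. GOT1 read 6.95 and 6.96 in control arrays against 6.71, 7.09 and 6.86 in the MondoA shRNA arrays, with array 2 above control. GOT2 read 9.77 and 9.64 in control arrays against 9.26, 9.73 and 9.66 in the MondoA shRNA arrays. In both genes MondoA shRNA array 1 was the lowest array, and the groups overlapped. D2HGDH, which oxidises D-2-hydroxyglutarate to oxoglutarate, read 4.77 to 4.95 with a difference of 0.01. It was the only one of the 32 genes with 2 probe sets, and the dimmer one differed by -0.04.

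In 27 of the 32 genes the range among the MondoA shRNA clones was larger than the difference between the groups. That share was not counted over all genes, so it is not shown to be particular to the 32. Of the 27 genes with a mean level above 5, MondoA shRNA array 2 was the single highest array in 19 (70.4%) and MondoA shRNA array 1 the single lowest in 16 (59.3%). Over all 7450 genes above that level these shares were 40.1% and 38.9%, so both arrays stood apart in genes at large as well. The median deviation from the 5-array mean was 0.17 in MondoA shRNA array 2 and -0.16 in MondoA shRNA array 1 for the 27 genes, and 0.04 and -0.06 for all 7450. The median SD among MondoA shRNA arrays was 0.23 for the 27 and 0.13 for the 7450, and among control arrays 0.08 and 0.05. Genes on 1 array are not independent, and this order of the arrays was not tested.

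**Figure D4:**
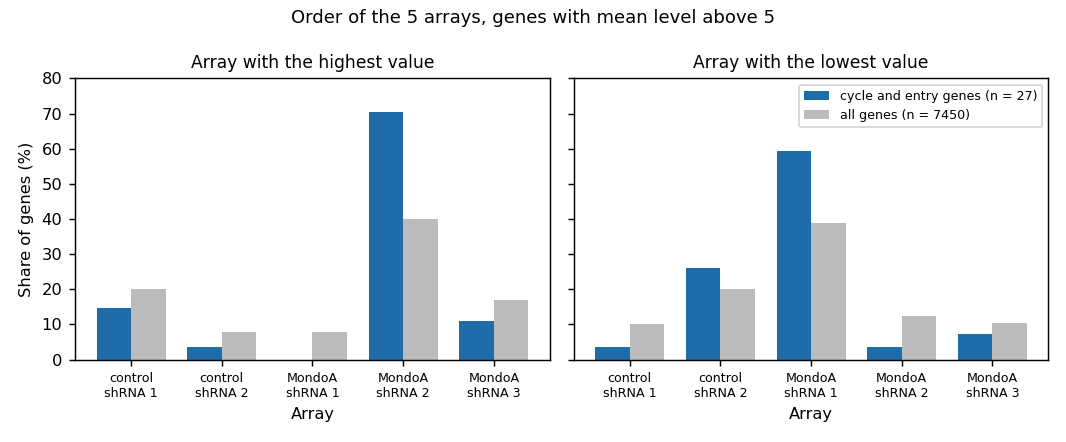
Bars give the share of genes (%) for which each of the 5 arrays holds the single highest value (left) or the single lowest value (right), for 27 cycle and entry genes and for all 7450 genes with a mean level above 5. MondoA shRNA array 2 is highest in 70.4% of the 27 genes and MondoA shRNA array 1 lowest in 59.3%, against 40.1% and 38.9% of all genes.

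In 7 further lists of genes around the cycle (72 genes, 60 measured), 0 passed the adjusted threshold by limma. Every MondoA shRNA array lay above both control arrays in 5 of the 60 (4.85% of all genes) and below both in 4 (5.18% of all genes). At an unadjusted p under 0.05 by limma 1 was higher and 2 were lower, against 1.55% and 2.18% of all genes. The remaining cycle genes (9 of 12 measured) had a median difference of 0.01 with 1 lower at that p. This was SDHA, the flavoprotein of succinate dehydrogenase, which read 9.93 and 9.86 in control against 9.78, 9.77 and 9.74 in the MondoA shRNA arrays, a difference of -0.13. SDHD, a membrane anchor subunit of the same enzyme, read 8.43 and 8.22 against 8.54, 9.01 and 8.66. Its difference of 0.41 (unadjusted p = 0.0960 by limma) had the opposite sign, with every MondoA shRNA array above control. SDHC, also a membrane anchor subunit, read 8.38 and 8.02 against 7.48, 8.32 and 7.69, a difference of -0.37 with overlapping groups. SDHAF2, an assembly factor of the enzyme, differed by 0.31, and its groups overlapped. SDHA has close pseudogene copies, and signal shared with them was not tested. ME2, the mitochondrial NAD-linked malic enzyme, read 9.99 and 9.76 against 9.18, 9.63 and 9.44, a difference of -0.45. It lies on chromosome 18, where the difference was below 0 in all 110 genes brighter than a mean level of 5 (median -0.42), whereas none of the 32 genes lies there.

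Glutamine and glutamate genes (15 of 19 measured) had a median difference of -0.03, and by limma the unadjusted p was under 0.05 for 1 higher and 1 lower gene. GLUL, which makes glutamine from glutamate, read 9.81 and 9.66 in control arrays against 9.41, 9.26 and 9.33 in the MondoA shRNA arrays, a difference of -0.40 (unadjusted p = 0.00753). OAT, ornithine aminotransferase, read 7.74 and 7.49 against 7.998, 8.39 and 8.04, a difference of 0.53 (unadjusted p = 0.0425). The groups did not overlap in either gene, and the limma adjusted p was 0.833 in both. Among the 15 genes, 3 had every MondoA shRNA array above control and 2 had every one below. Mitochondrial carriers (8 of 9 measured), lipoylation and cofactor genes (8 of 11), genes of pyruvate and citrate use (11 of 11), the branched-chain complex that shares DLD (7 of 7) and genes around 2-hydroxyglutarate (2 of 3) had median differences from -0.01 to 0.04. In those 5 lists 0 genes had an unadjusted p under 0.05 by limma.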

How the data were processed

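RNA from 5 Nalm6 clones (200 ng each, labelled with biotin) was hybridised to Affymetrix whole-transcript arrays. The authors summarised probes with RMA in Affymetrix Expression Console 1.1, per the submitters' processing notes, and the deposited values are log2 expression for 33297 probe sets. The log base is not given in the sources used here and was taken as 2. RMA equalises array distributions and can give several arrays exactly the same value. Depth does not apply to arrays, and the number of arrays limits the precision.

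Platform annotation gave 1 symbol to 19460 probe sets, several to 1754 and none here to 12083. Names were updated by Entrez number from RefSeq (GRCh38.p14; 19429 matched). The brightest probe set of each gene was kept (18417 genes). Groups followed the titles. limma 3.58.1 (R 4.3.3) compared all genes, two-sided, with Benjamini-Hochberg adjustment, and exact permutation tests used scipy 1.17.1. The limma step was tested on simulated data with independent normal noise. Those data held no tied values and no shifts shared across an array, so the test does not cover these features. Genes and lists were chosen with earlier results of these data known. Named with values in every array were the isocitrate dehydrogenase, pyruvate dehydrogenase and kinase genes, genes with an unadjusted p under 0.05 or groups apart, and the 5 largest differences, and at most 2 genes of lowest p per other list. ACO1, DLST, MDH1, MDH2, OGDH, GOT1, GOT2, SUCLA2, SDHC, SDHD, SDHAF2 and the marker genes were named outside that rule after their values were seen. Alternatives left out arrays, dim genes or tied genes, normalised or centred again, averaged probe sets, changed the moderation, weighted arrays or used the replicate number as a block.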

Additional observations from a re-analysis of the deposited data

How the results depend on the processing

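With 1 array left out, the count of all genes past the adjusted threshold in limma ran from 0 to 752 and that of the 32 genes from 0 to 3. Over all genes the count was 2 after quantile normalising again, 2 after centring and 60 of 4301 genes without tied values, with 0 of the cycle and entry genes among them in each case. The IDH2 difference ran from -0.384 to -0.371 with 1 array left out, and its adjusted p in limma from 0.0217 to 0.483. IDH2 minus IDH1 ran from -0.00558 to 0.33, the negative value being that without MondoA shRNA array 1. The replicate numbers mark no shared source in the labels, and deviations of same-numbered arrays correlated at -0.30 and -0.24 across 7450 genes. With the replicate block the IDH2 difference was -0.371 (limma adjusted p = 0.828), and 0 genes passed. That fit sets MondoA shRNA array 3 aside. Of 224 values for 18 named genes under 13 alternatives, 207 kept sign and side of the threshold, 1 was 0 (PDK4 without control array 2), 5 newly passed, each without a control array, and 11 turned sign. Of these, 10 came with 1 array left out, where differences ran for DLAT from -0.0618 to 0.101, for DLD from -0.156 to 0.0766, for IDH3B from -0.149 to 0.0538. They ran for IDH3G from -0.0184 to 0.273, for PDHA1 from -0.0741 to 0.161, for PDHX from -0.138 to 0.358. The last was DLAT at -0.00284 after the arrays were quantile normalised again. Their median (32 genes) went from -0.0167 to 0.101 with 1 array left out, lowest without MondoA shRNA array 2. The cause of these changes was not tested. Removing PDK4 from the kinase mean was chosen after seeing the data. Where the groups do not overlap, leaving out an array cannot turn the sign.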
